A study of Homo sapiens with 24 samples.

Results

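The transcripts examined here are those of 10 genes from the protease inhibitor families of epithelia: cystatin E/M (CST6), cystatin A (CSTA), cystatin B (CSTB), secretory leukocyte peptidase inhibitor (SLPI), elafin (PI3), the hepatocyte growth factor activator inhibitors SPINT1 and SPINT2, and the clade B serpins SERPINB1, SERPINB5 (maspin, a serpin by family that does not itself inhibit proteases) and SERPINB13. Every probe set whose annotation names 1 of these genes and no other was taken, which gave 23 of the 54613 probe sets that are not controls. Of the 23, 20 passed a filter on low values, and each of the 10 genes kept at least 1 probe set among the 12008 genes tested. For each gene the brightest of its tested probe sets stands for it, chosen over all arrays without regard to treatment, and the other probe sets are given beside it.

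The cells were RWPE1, 1 line of immortalized human prostate epithelial cells that is not transformed. Flasks at 60% confluence received either 100 nM 1,25(OH)2D, the hormone form of vitamin D, or vehicle (0.1% ethanol). RNA was taken after 6, 24 or 48 h, with 4 samples for each treatment at each time, 6 groups and 24 arrays in all. Medium was renewed at 24 h in the cultures of the 48 h groups, so time and medium renewal cannot be told apart there. Each value is a log2 expression value from an Affymetrix U133 Plus 2.0 array, and a log2 difference of 1 is a doubling. Levels of different probe sets are not on a common scale and are not set against each other.

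Protease inhibitors of epithelia act against enzymes made by the epithelium itself and against enzymes brought by neutrophils. Cystatins block the papain-like cysteine cathepsins and, for cystatin E/M, also legumain. Inhibitors with a WAP domain (SLPI and elafin) and most serpins act on serine proteases such as neutrophil elastase. The Kunitz inhibitors SPINT1 and SPINT2 sit in the cell membrane, where they restrain matriptase, prostasin and the activator of hepatocyte growth factor. 1,25(OH)2D acts through the vitamin D receptor (VDR), a nuclear receptor that binds DNA with the retinoid X receptor, classically at a direct repeat of 2 hexamers with 3 bases between them.

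Promoter windows from RefSeq (GRCh38.p14), running from 250 bases before to 50 bases after the transcription start, were at hand for 4 of the 10 genes, namely SPINT1, SERPINB1, SERPINB5 and SERPINB13. Those of the 3 serpins are printed because SERPINB1 and SERPINB13 moved in opposite directions with 1,25(OH)2D at 6 h, and because SERPINB5 lies beside SERPINB13 in the serpin cluster of chromosome 18, with SERPINB12 between them. SERPINB1 lies at chr6:2841814-2842113 on the minus strand, SERPINB5 at chr18:63476708-63477007 and SERPINB13 at chr18:63587093-63587392, both on the plus strand. Capitals mark a VDR half-site hexamer (AGGTCA or its variants GGGTCA and GGTTCA and AGTTCA) or the AP-1 motif TGANTCA, each searched on both strands.
SERPINB1 promoter: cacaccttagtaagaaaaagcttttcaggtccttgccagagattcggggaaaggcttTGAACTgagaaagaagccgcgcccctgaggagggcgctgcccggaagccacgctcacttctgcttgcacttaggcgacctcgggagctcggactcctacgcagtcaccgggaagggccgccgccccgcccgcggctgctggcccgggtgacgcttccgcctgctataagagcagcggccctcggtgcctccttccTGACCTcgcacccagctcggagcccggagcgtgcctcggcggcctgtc
SERPINB5 promoter: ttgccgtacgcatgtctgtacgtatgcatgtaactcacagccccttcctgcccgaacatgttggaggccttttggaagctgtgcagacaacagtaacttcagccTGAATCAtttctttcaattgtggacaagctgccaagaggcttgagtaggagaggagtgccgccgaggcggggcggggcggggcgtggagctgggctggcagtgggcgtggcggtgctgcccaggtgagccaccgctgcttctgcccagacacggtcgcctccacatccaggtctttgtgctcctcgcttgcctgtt
SERPINB13 promoter: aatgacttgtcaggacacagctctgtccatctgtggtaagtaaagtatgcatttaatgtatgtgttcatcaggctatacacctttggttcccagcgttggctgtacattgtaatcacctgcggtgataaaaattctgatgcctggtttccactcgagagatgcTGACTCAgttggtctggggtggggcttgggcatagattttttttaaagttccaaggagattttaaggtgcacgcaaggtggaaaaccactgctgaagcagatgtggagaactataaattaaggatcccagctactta
In the SERPINB1 window the capitals are half-sites of the reverse strand, TGAACT at position -193 and TGACCT at position 3, counted from the start site, which is position 1 and has position -1 before it. In SERPINB5 and SERPINB13 the capitals are the AP-1 motif, at positions -146 and -87. Both kinds of match also occur in SPINT1, whose windows are not printed and which was not called with 1,25(OH)2D at any time. Its window starting at chr15:40843798 holds TGACTCA at position -6, and that starting at chr15:40844227 holds the half-site AGGTCA at position 12. A half-site is found in 38.6% of all 35116 promoter windows and TGANTCA in 7.71%. The direct repeat, with both hexamers on one strand, is found in 0.074% of the windows and in none of the 5 windows of these genes. These matches describe letters only, and binding was not measured on the arrays. The study did choose a putative VDR site of SERPINB1, among other genes, for chromatin immunoprecipitation. It reports VDR binding at CYP24, TRPV6, CYP26B1, AKAP12 and SEMA3B and does not name SERPINB1 there. Whether the site it chose lies in the window printed here was not looked at.

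With 1,25(OH)2D, CST6 and SERPINB1 rose at 6, 24 and 48 h, SLPI rose at 24 and 48 h, and SERPINB13 fell at 6 and 48 h. The other 6 genes (CSTA, CSTB, PI3, SPINT1, SPINT2 and SERPINB5) did not pass the test at any time. Treated and vehicle arrays were compared with limma at each time, and a gene was called at a Benjamini-Hochberg adjusted p under 0.05 over all tested probe sets. At 6 h, 2 of the 10 genes were called higher and 1 lower, against 2.37% and 1.04% of all tested genes. At 24 h, 3 were called higher and 0 lower, against 0.325% of all genes called higher and 0.192% lower. At that time 5 of the 10 had an unadjusted p under 0.05, as had 9.79% of all genes. The 3 calls at 24 h were all lost with no filter on low values and with a block for the replicate number. With 1 array left out in turn, they held in 2 (CST6), 1 (SLPI) and 1 (SERPINB1) of 8 refits. That of SERPINB13 at 6 h held in 2 of 8. At 48 h, 3 were called higher, against 5.14% of all genes, and 1 lower, against 6.87%. Over the 10 genes the log2 differences had a median of 0.04, 0.12 and 0.17 in order of time, beside -0.03, 0.01 and -0.01 over all tested genes. The RNA comes from whole cultures, so a change in the share of cells of one kind and a change in RNA per cell cannot be told apart. The 4 samples of a group are labelled as biological replicates. Should the flasks of a group share a culture, a p-value covers no more than the scatter among these samples.

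**Figure D1:**
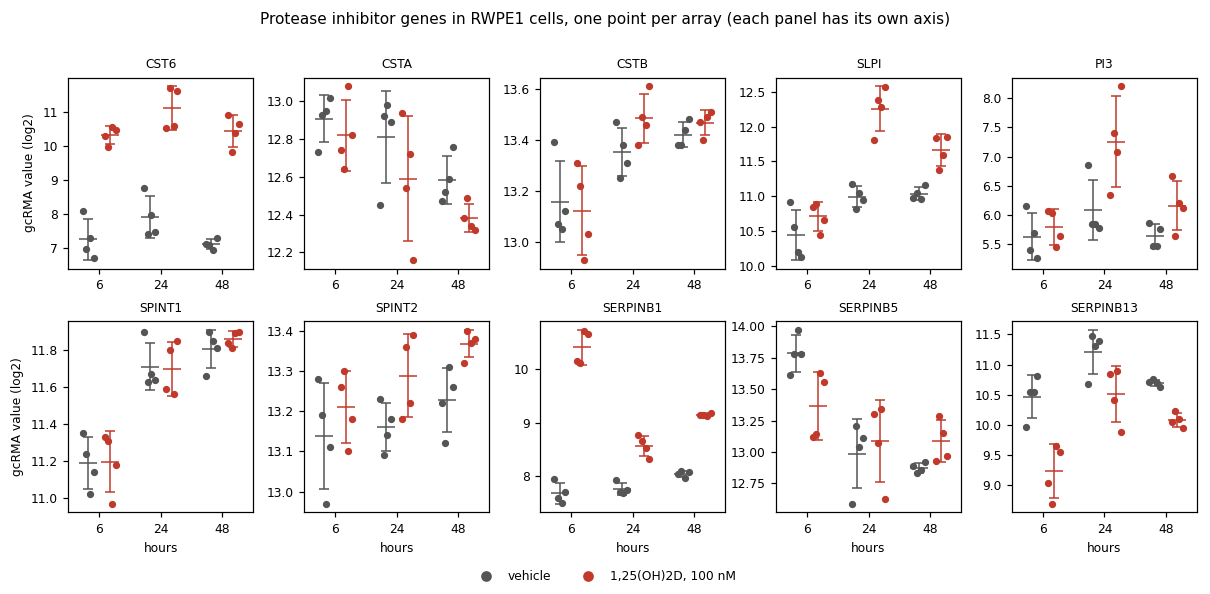
Log2 expression value of each gene's representative probe set on each of the 24 arrays, by hours of exposure, with vehicle in grey and 1,25(OH)2D in red. Horizontal marks are means and bars are SDs of 4 arrays, and each panel has its own vertical axis, so heights cannot be compared across panels. The treated arrays of CST6 and SERPINB1 lie above all vehicle arrays at each time, and those of SERPINB13 lie below them at 6 and 48 h.

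CYP24A1, which encodes the enzyme that degrades 1,25(OH)2D and is its best-known target, read 3.48 to 4.51 on the 12 vehicle arrays, 13.65 to 13.90 on the treated arrays at 6 h, 8.90 to 10.91 at 24 h and 9.33 to 10.10 at 48 h, so every array matched its treatment label. Vehicle readings overlapped between times, as did treated readings of 24 and 48 h, so those time labels were not checked by this gene. The basal keratins KRT5 (15.24 to 15.44) and KRT14 (16.04 to 16.21) were high on all arrays. Among the luminal markers, KRT8 and KRT18 were high as well, while KLK3 lay between 3.42 and 5.20 and the 3 other markers with a probe set did not pass the filter on low values. COL1A1, a collagen of stroma, read 9.45 to 10.72 on all arrays, and the mean of 6 stromal markers 3.94 to 4.34. The endothelial receptor KDR read 2.90 to 6.04, with log2 differences of -1.41 and -1.58 at 24 and 48 h, and the mean of 4 endothelial markers 2.88 to 3.72. Of the leukocyte markers 1 of 6 passed that filter, PTPRC, at 3.22 to 3.82, and the mean level of the 6 lay between 2.27 and 2.46 on all arrays. The mean of 5 basal markers with a probe set moved with treatment, from 13.49 to 13.64 with vehicle to 13.02 to 13.27 with 1,25(OH)2D at 24 h, and from 13.61 to 13.73 to 13.14 to 13.33 at 48 h, and its part in the later results was not tested. Most of that shift came from 1 marker, the keratin KRT15, with log2 differences of -1.52 at 24 h and -1.92 at 48 h, while KRT5 was at 0.03 and 0.01 and KRT14 at 0.07 and 0.06.
After the group means were subtracted, 71.9% of the remaining variance lay along 1 axis, and 4 arrays stood apart on it (a position beyond 0.3 in size): vehicle 6 h replicate 1 (-0.346), vehicle 24 h replicate 1 (-0.36), 1,25(OH)2D 24 h replicate 1 (0.413) and 1,25(OH)2D 24 h replicate 4 (-0.544). The called results of the 10 representative probe sets that use arrays of 6 or 24 h are also given without these 4. Leaving out all 4, which keeps 3 vehicle and 2 treated arrays at 24 h, raised the genes called at 24 h from 0.516% to 24.8% of all tested genes. The 4 were picked by their scatter in these same data, so leaving them out lowers the spread by construction. A call gained only in that way is given as a description and is no support for a change.

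CST6 encodes a secreted cystatin that inhibits legumain and the cathepsins L and V. By the probe set that stands for each gene, 206595_at for CST6, it showed the largest rise of the 10 genes at every time. On vehicle at 6 h its 4 arrays read 8.08, 6.95, 7.28 and 6.69, and with 1,25(OH)2D they read 10.28, 9.96, 10.55 and 10.46.
At 24 h the vehicle arrays read 8.76, 7.41, 7.97 and 7.47 and the treated arrays 10.51, 11.70, 10.59 and 11.61. At 48 h they read 7.12, 7.08, 6.93 and 7.30 with vehicle and 10.91, 9.82, 10.38 and 10.64 with the hormone. The lowest treated array lay above the highest vehicle array at each time. The log2 difference was 3.06 (SE 0.289) at 6 h, 3.20 (SE 0.404) at 24 h and 3.33 (SE 0.215) at 48 h, or 8.35-fold, 9.2-fold and 10.1-fold, with limma adjusted p of 0.000897, 0.0282 and 9.23e-05.
Without the 4 arrays that stood apart the difference at 6 h was 3.34 (adjusted p 0.000217). The size of the CST6 effect at 24 and 48 h did not pass the test for a difference from that at 6 h. The difference of effects was 0.14 (95% interval -0.84 to 1.12) at 24 h and 0.27 (-0.72 to 1.25) at 48 h. The call at 24 h was lost when any of 6 of the 8 arrays of that time was left out, with a log2 difference of 3.0 to 3.49 over the 8 refits. Vehicle replicates 2, 3 and 4 and 1,25(OH)2D replicates 2, 3 and 4 are the arrays whose absence ended it, at adjusted p of up to 0.132. This call was also lost with no filter on low values and with a block for the replicate number. Without the 4 arrays that stood apart the difference at 24 h was 3.53 (adjusted p 0.0136).

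The second CST6 probe set, 231248_at, did not follow the first after 6 h. Its vehicle arrays stayed near the bottom of the scale, between 2.53 and 2.82 at all times. With 1,25(OH)2D for 6 h it read 6.56, 6.02, 5.76 and 5.97. With the hormone for 24 h it read 3.10, 3.45, 2.82 and 3.48, and for 48 h 2.61, 2.52, 2.79 and 2.57. It was thus high with the hormone at 6 h and within the range of vehicle, or close to it, at 48 h.
This probe set passed the filter on low values only through the treated arrays of 6 h, and all of its vehicle arrays lay under the lowest value kept, 3.2. Its values are therefore given as a description, with no test. Which part of the transcript each probe set reads is not given in the sources used here, and the cause of the difference between them was not tested.

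**Figure D2:**
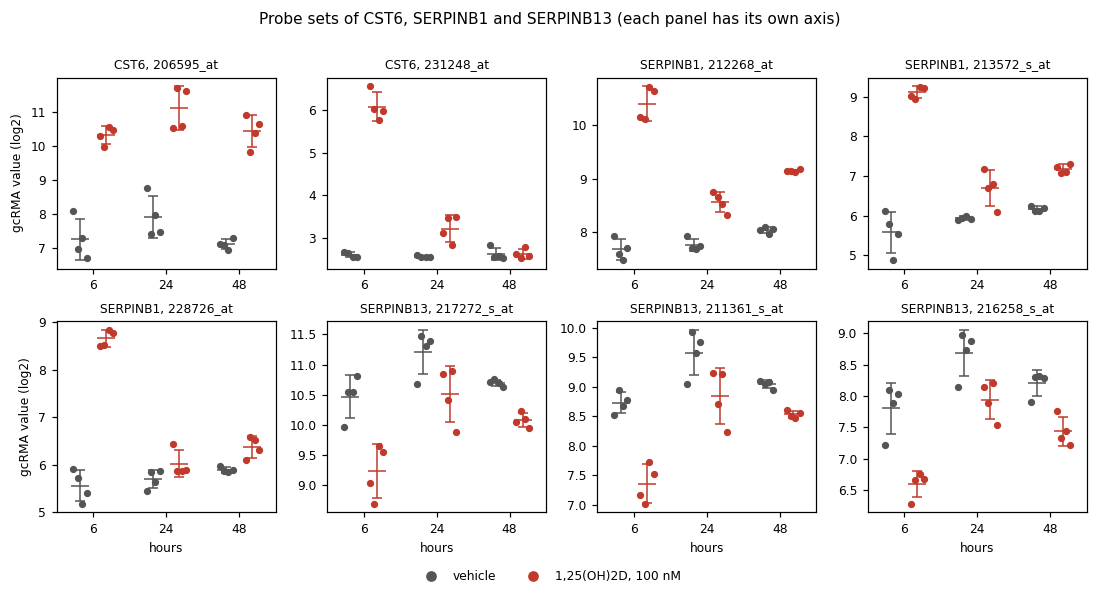
Log2 expression value on each array for both CST6 probe sets, the 3 tested SERPINB1 probe sets and 3 of the 4 tested SERPINB13 probe sets, by hours of exposure, with means and SDs of 4 arrays and an axis of its own for each panel. For CST6, 206595_at stayed high with 1,25(OH)2D at 24 and 48 h while 231248_at came back to between 2.52 and 2.79 at 48 h.

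Cystatins A and B, the cytosolic inhibitors of cathepsins of which cystatin A is also built into the cornified envelope of squamous epithelia, did not pass the test at any time. CSTA read 12.47, 12.52, 12.59 and 12.76 with vehicle at 48 h and 12.38, 12.49, 12.34 and 12.32 with 1,25(OH)2D. The groups overlapped, with a log2 difference of -0.20 (95% interval -0.37 to -0.04, adjusted p 0.136).
At 6 and 24 h the differences of CSTA were -0.09 (-0.36 to 0.18) and -0.22 (-0.67 to 0.23). CSTB lay between 12.93 and 13.61 on all 24 arrays, and its differences were -0.03 (-0.31 to 0.24) at 6 h, 0.13 (-0.06 to 0.33) at 24 h and 0.05 (-0.06 to 0.15) at 48 h. A change of 1.5-fold lies outside these intervals for CSTB and, at 6 and 48 h, for CSTA. The dim second probe set of CSTB, 236449_at, was not called at any time.

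SLPI encodes a secreted inhibitor of neutrophil elastase and cathepsin G. It was not called at 6 h and rose at the later times. At 6 h the vehicle arrays read 10.91, 10.55, 10.20 and 10.12 and the treated arrays 10.84, 10.89, 10.44 and 10.66, which overlap, with a log2 difference of 0.26 (95% interval -0.18 to 0.70, adjusted p 0.995).
At 24 h vehicle read 11.17, 10.81, 11.05 and 10.94 and 1,25(OH)2D 11.81, 12.38, 12.28 and 12.57. At 48 h vehicle read 10.98, 11.05, 10.96 and 11.16 and 1,25(OH)2D 11.84, 11.37, 11.59 and 11.85. All treated arrays lay above all vehicle arrays at both times. The differences were 1.27 (SE 0.17, 2.41-fold, adjusted p 0.0337) and 0.63 (SE 0.112, 1.54-fold, adjusted p 0.0121). The call at 24 h was lost with no filter on low values, with median centring and with a block for the replicate number. Among the treated arrays of 24 h, replicate 4 was highest in SLPI at 12.57 and replicate 1 lowest at 11.81, and these lie at opposite ends of the axis of variation between arrays.
The effect of 1,25(OH)2D on SLPI was larger at 24 h than at 6 h by 1.00 (SE 0.239, adjusted p 0.0271). In that test 1 of the 10 genes was called higher, against 1.05% of all genes, and 1 lower, against 1.79%. Leaving out 1 array at a time kept the SLPI call in 15 of 24 refits, with a difference of effects between 0.85 and 1.16 and an adjusted p of up to 0.0663, and without the 4 arrays that stood apart it was 0.98 (adjusted p 0.0112). The arrays whose absence ended it were vehicle 6 h replicates 1 and 2, 1,25(OH)2D 6 h replicates 3 and 4, vehicle 24 h replicates 2 and 4, and 1,25(OH)2D 24 h replicates 2, 3 and 4. The effects at 48 and 6 h differed by 0.36 (95% interval -0.13 to 0.86, adjusted p 0.833). The call of SLPI at 24 h held in 1 of 8 such refits (1.16 to 1.42, adjusted p 0.0137 to 0.166), that without 1,25(OH)2D replicate 1, and without the 4 arrays that stood apart the difference was 1.40 (adjusted p 0.00923).

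Elafin, the product of PI3, inhibits neutrophil elastase and proteinase 3 and is, like SLPI, a small WAP protein encoded in the cluster on chromosome 20. PI3 was not called at any time. At 24 h its vehicle arrays read 6.85, 5.85, 5.85 and 5.78 and its treated arrays 6.34, 7.41, 7.07 and 8.20. The groups overlapped through vehicle replicate 1, the highest of its group, and 1,25(OH)2D replicate 1, the lowest of its group.
Among the treated arrays the order of the PI3 values, like that of SLPI, was that of the axis, from replicate 4, lowest on the axis and highest in PI3 at 8.20, to replicate 1, at the other end and lowest in PI3 at 6.34. Vehicle replicate 1, the highest in PI3 and in SLPI (11.17) of its group, was also the lowest of its group on the axis. The difference was 1.17 (95% interval 0.20 to 2.14, adjusted p 0.494) on all 8 arrays. Without the arrays that stood apart it was 1.41 (adjusted p 0.0116), in a setting that called 24.8% of all tested genes. The second probe set, 41469_at, gave 1.15 (adjusted p 0.511) and 1.43 (adjusted p 0.013). The part of the axis in these values was not tested.
At 48 h, where no array stood apart, PI3 read 5.87, 5.47, 5.47 and 5.77 with vehicle and 6.66, 5.65, 6.21 and 6.12 with the hormone, a difference of 0.51 (95% interval 0.04 to 0.98, adjusted p 0.181). Only replicate 2 of the treated arrays lay within the range of vehicle. PI3 was called in 1 of 8 refits without 1 array, the one without that replicate (0.34 to 0.68, adjusted p 0.0377 to 0.354). Leaving out the treated array nearest to vehicle widens the difference by itself, so that refit is no support for a call. At 6 h the 2 probe sets gave 0.17 and -0.17, with overlapping arrays.

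**Figure D3:**
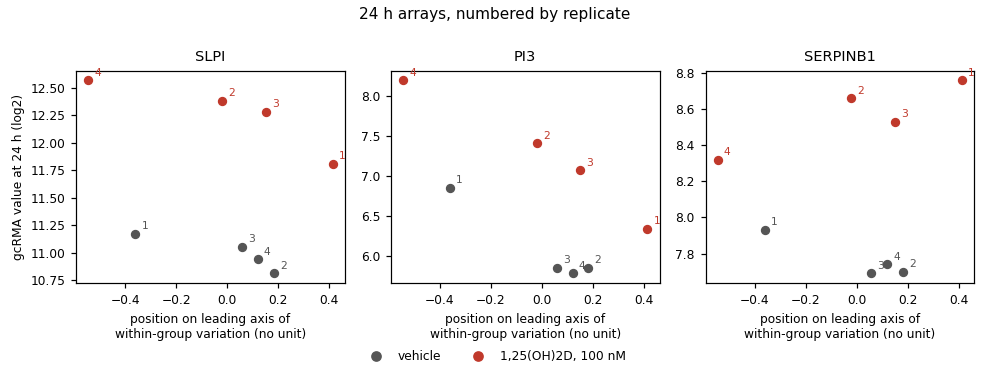
Log2 expression values of SLPI, PI3 and SERPINB1 on the 8 arrays of 24 h (vertical) against the position of the array on the leading axis of variation within groups (horizontal, no unit), numbered by replicate. Treated arrays lie above the vehicle arrays for SLPI and SERPINB1, whereas for PI3 treated replicate 1 (6.34) falls below vehicle replicate 1 (6.85).

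The Kunitz inhibitors did not pass the test with 1,25(OH)2D. SPINT1 (HAI-1) differed by 0.01 (95% interval -0.25 to 0.27) at 6 h, -0.01 (-0.26 to 0.23) at 24 h and 0.05 (-0.08 to 0.19) at 48 h. SPINT2 (HAI-2) differed by 0.08 (-0.14 to 0.29), 0.12 (-0.06 to 0.31) and 0.14 (0.02 to 0.25).
Each of these intervals, from the representative probe sets, lies within 1.5-fold of no change. On 235546_at, the dim second probe set of SPINT1, the differences were -0.17 (-0.45 to 0.10), 0.32 (-0.16 to 0.79) and -0.03 (-0.13 to 0.07), none called. Its interval at 24 h reaches beyond 1.5-fold. For SPINT2 at 48 h the arrays read 13.22, 13.12, 13.31 and 13.26 with vehicle and 13.32, 13.40, 13.37 and 13.38 with 1,25(OH)2D. All treated arrays lay above all vehicle arrays, and the gene missed the threshold (adjusted p 0.144).

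SERPINB1 encodes an intracellular inhibitor of neutrophil elastase, cathepsin G and proteinase 3. Its rise was largest at 6 h. The vehicle arrays read 7.94, 7.59, 7.49 and 7.70 at 6 h, and the treated arrays read 10.15, 10.11, 10.72 and 10.65.
At 24 h they read 7.93, 7.70, 7.69 and 7.74 with vehicle and 8.76, 8.66, 8.53 and 8.32 with the hormone. At 48 h they read 8.04, 8.10, 7.96 and 8.07 with vehicle and 9.14, 9.15, 9.13 and 9.18 with the hormone. The groups did not overlap at any time, and at 48 h the 4 treated arrays lay within 0.05 of each other by these values (SD 0.0212).
The log2 difference was 2.72 (SE 0.175, 6.61-fold) at 6 h, 0.80 (SE 0.115, 1.74-fold) at 24 h and 1.11 (SE 0.0434, 2.16-fold) at 48 h, with adjusted p of 0.000126, 0.045 and 6.9e-06. The effect was smaller than at 6 h at both later times, with a difference of effects of -1.92 (SE 0.18, adjusted p 8.83e-07) at 24 h and -1.62 (SE 0.18, adjusted p 9.06e-06) at 48 h. SERPINB1 was the 1 gene of the 10 called in the comparison of 48 with 6 h, against 2.23% of all genes called lower there. Both differences of effects were called in all 24 refits that left out 1 array. Without the 4 arrays that stood apart the difference at 6 h was 2.81 (adjusted p 0.000339) and the differences of effects were -1.93 (adjusted p 1.05e-05) and -1.70 (adjusted p 4.8e-06).
The call at 24 h was narrower. It held in 1 of 8 refits (0.74 to 0.89, adjusted p 0.0219 to 0.209), the one without 1,25(OH)2D replicate 4, and without the arrays that stood apart the difference was 0.89 (adjusted p 0.0108). It was lost with no filter on low values, with median centring and with a block for the replicate number. It was also lost with the trend and robust options of eBayes and with the mean of the probe sets.

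The other SERPINB1 probe sets shared this course. On 213572_s_at the log2 differences at 6, 24 and 48 h were 3.53 (adjusted p 0.000189), 0.76 (adjusted p 0.343) and 1.00 (adjusted p 9.5e-05). On 228726_at they were 3.10 (adjusted p 5.27e-05), 0.32 (adjusted p 0.601) and 0.49 (adjusted p 0.0291).
All 3 tested probe sets were called higher at 6 and 48 h, and all 3 had a smaller effect at 24 and at 48 h than at 6 h. At 24 h 1 of the 3 was called. The probe set 239213_at lay between 1.93 and 2.13 on all arrays and did not pass the filter on low values.

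SERPINB13 encodes a serpin of squamous epithelia that, unlike most serpins, inhibits cysteine cathepsins (K and L). It was the 1 gene of the 10 that fell with 1,25(OH)2D. The vehicle arrays read 9.97, 10.55, 10.54 and 10.82 at 6 h and the treated arrays 9.04, 8.70, 9.66 and 9.56.
At 24 h vehicle read 10.68, 11.47, 11.31 and 11.39 and 1,25(OH)2D 10.85, 10.42, 10.89 and 9.89. At 48 h vehicle read 10.71, 10.76, 10.69 and 10.63 and 1,25(OH)2D 10.05, 10.24, 10.10 and 9.96. Treated arrays lay below all vehicle arrays at 6 and 48 h and overlapped them at 24 h through vehicle replicate 1.
The log2 difference was -1.23 (SE 0.256, adjusted p 0.0481) at 6 h, -0.70 (SE 0.27, adjusted p 0.53) at 24 h and -0.61 (SE 0.0643, adjusted p 0.00107) at 48 h. The treated level was thus 0.426 times that of vehicle at 6 h and 0.656 times at 48 h. The call at 48 h held in all 8 refits without 1 array, and that at 6 h in 2 of 8 (-1.40 to -1.05, adjusted p 0.0274 to 0.156), those without vehicle replicate 1 or 1,25(OH)2D replicate 3. The call at 6 h was also lost with no filter on low values and with an offset of 32 added on the linear scale. In 1 fit of all 24 arrays the call at 48 h was lost. Without the arrays that stood apart the difference was -1.40 (adjusted p 0.0274) at 6 h and -0.73 (adjusted p 0.0353) at 24 h. That setting called 24.8% of all tested genes at 24 h.

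Of the 4 tested SERPINB13 probe sets, 3 were called lower at 6 h, 0 at 24 h and 4 at 48 h. On 211361_s_at the difference was -1.37 at 6 h (adjusted p 0.00404) and -0.51 at 48 h (adjusted p 0.000881). On 216258_s_at it was -1.22 (adjusted p 0.019) and -0.77 (adjusted p 0.0123), and on 211362_s_at -1.37 (adjusted p 0.0564) and -0.72 (adjusted p 0.0223).
The smaller size at 48 h than at 6 h did not pass the test on any of the 4 with all arrays, and without the arrays that stood apart it passed on 211361_s_at (0.93, adjusted p 0.0107). The difference of effects was 0.63 (95% interval -0.06 to 1.31, adjusted p 0.602) on the probe set that stands for the gene. The 2 probe sets that failed the filter, 215817_at and 216257_at, read 2.15 to 2.38 on all arrays.

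SERPINB5 encodes maspin, a serpin without inhibitory action on proteases that was first described as a tumor suppressor of mammary epithelium. It was not called with 1,25(OH)2D, and its differences at 6 and 48 h had opposite signs. At 6 h the arrays read 13.61, 13.78, 13.97 and 13.78 with vehicle and 13.12, 13.14, 13.63 and 13.56 with the hormone, a difference of -0.42 (95% interval -0.76 to -0.08, adjusted p 0.321).
At 48 h they read 12.89, 12.83, 12.86 and 12.92 with vehicle and 12.93, 13.29, 13.15 and 12.97 with the hormone, a difference of 0.21 (0.02 to 0.39, adjusted p 0.18). Treated arrays were lower but overlapping at 6 h and all higher at 48 h. The change of the effect from 6 to 48 h, 0.63 (SE 0.222), had an adjusted p of 0.201. Without the arrays that stood apart it was 0.68 (adjusted p 0.0221), while the share of all genes called in that test rose from 3.71% to 6.96%. Counting SPINT2 and SERPINB5, treated and vehicle arrays did not overlap for 6 of the 10 genes at 48 h, against 19.2% of all tested genes. At 6 h this held for 3 of the 10 against 8.85%, and at 24 h for 3 against 6.1%.

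**Figure D4:**
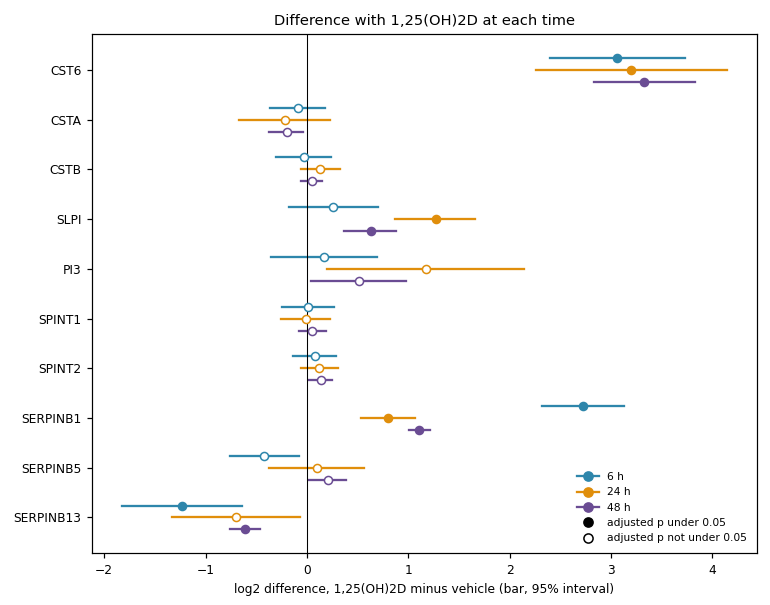
Log2 difference, 1,25(OH)2D minus vehicle, for each gene at 6, 24 and 48 h, with 95% intervals from the limma fit of 8 arrays per time. Filled points had an adjusted p under 0.05. CST6, by its probe set 206595_at, was between 3.06 and 3.33, SERPINB1 was at 2.72 at 6 h and 0.80 at 24 h, and SLPI was at 0.26 at 6 h and 1.27 at 24 h.

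Some of the inhibitors also changed with time in culture without hormone. From 6 to 24 h in vehicle SPINT1 rose and SERPINB5 fell, in a fit of all 24 arrays. SPINT1 read 11.35, 11.24, 11.02 and 11.14 at 6 h and 11.90, 11.63, 11.67 and 11.64 at 24 h, and all arrays of 24 h lay above those of 6 h, a difference of 0.52 (SE 0.0942, 1.44-fold, adjusted p 0.00117). SERPINB5 went from a mean of 13.79 (SD 0.144, n = 4) to 12.99 (SD 0.274, n = 4), a difference of -0.80 (SE 0.157, adjusted p 0.00253), and its arrays did not overlap either.
These are 1 gene higher and 1 lower of 10, against 5.07% and 3.9% of all tested genes. Both calls held in all 24 refits without 1 array, and that of SPINT1 was lost with median centring (0.54) and with the mean of its probe sets (0.28). Without the arrays that stood apart SPINT1 was at 0.51 (adjusted p 0.00195) and SERPINB5 at -0.72 (adjusted p 0.00204). SPINT1 had reached 11.70 (SD 0.146) with 1,25(OH)2D at 24 h as well, from 11.20 (SD 0.166) at 6 h. The dim second probe set of SPINT1, 235546_at, differed by 0.03 in vehicle from 6 to 24 h (adjusted p 0.945).
SLPI and SERPINB13 were at 0.55 (adjusted p 0.0517) and 0.74 (adjusted p 0.0537) over the same interval. Of the SERPINB13 probe sets, 211361_s_at and 216258_s_at were called, at 0.85 (adjusted p 0.0102) and 0.88 (adjusted p 0.00936). Without the arrays that stood apart, SLPI was at 0.64 (adjusted p 0.00701) and SERPINB13 at 0.75 (adjusted p 0.0155), both called. The share of all genes called in that test rose from 8.97% to 12.1%. For SLPI, leaving out vehicle 6 h replicate 1 alone gave 0.70 and a call, as did leaving out any of 4 arrays with 1,25(OH)2D, which enter this test only through the shared spread.
From 24 to 48 h in vehicle 0 of the 10 genes were called by limma, against 0.167% of all genes called higher and 0.258% lower, and 3 had an unadjusted p under 0.05, as had 9.5% of all genes. The difference of SERPINB13 was -0.52 (adjusted p 0.543), and -0.69 (adjusted p 0.0452) without the arrays that stood apart. Leaving them out raised the share of all genes called there from 0.425% to 3.66%.

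Related genes were taken by family and by target, and their counts are to be read against the shares of all genes called, which for 6 h were 2.37% higher with 1.04% lower, for 24 h 0.325% with 0.192%, for 48 h 5.14% with 6.87%. Of 10 other clade B serpins 8 have a probe set of their own, and 3 passed the filter on low values: SERPINB3, SERPINB7 and SERPINB8. None of the 3 was called at any time, with log2 differences of -0.75 (adjusted p 0.0907) at 6 h and 0.04 at 48 h for SERPINB3, an inhibitor of cathepsins that is encoded near SERPINB13. The median of the 3 was -0.42, 0.04 and -0.30 at 6, 24 and 48 h.
Of 8 tested genes outside the group, taken as secreted inhibitors of serine proteases and their relatives, 1 fell at 6 h, 1 rose at 24 h and 2 fell at 48 h. Not all 8 are such inhibitors, SERPINF1 and RECK among them. TFPI2, a Kunitz inhibitor, fell by 0.79 on the log2 scale at 6 h (adjusted p 0.00426). SERPINE2, an inhibitor of thrombin and plasminogen activators, rose by 0.68 at 24 h (adjusted p 0.0276). SPINK6, a Kazal inhibitor of kallikreins of the skin, fell by 2.18 at 48 h (adjusted p 0.000737), and SERPINF1, a serpin without inhibitory action, by 1.07 (adjusted p 4.07e-05).
These changes were of both signs, and the median of the 8 was 0.03, -0.04 and -0.09 at 6, 24 and 48 h. Of 5 tested genes related to cystatins by fold or by target, 1 was called: latexin (LXN), a carboxypeptidase inhibitor, fell by 0.73 at 48 h (adjusted p 0.00317). CST3, the widely expressed cystatin C, differed by 0.01, 0.14 and 0.05 at 6, 24 and 48 h and was not called.

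The enzymes that the cystatins and Kunitz inhibitors act on were taken from the same arrays. Of 8 tested cysteine proteases, 1 was called at any time, CTSV, the cathepsin V of squamous epithelia and a target of cystatin E/M, which fell by 0.78 on the log2 scale at 48 h (SE 0.0814, adjusted p 0.00102). LGMN, the legumain that cystatin E/M also inhibits, differed by -0.06, 0.16 and 0.00 and CTSL by 0.18, 0.07 and 0.12 at 6, 24 and 48 h, none of them called.
Among 7 tested membrane serine proteases and partners of SPINT1 and SPINT2, 0 were called at 6 or 24 h, and 3 were called higher and 1 lower at 48 h, against the 5.14% and 6.87% of all genes. TMPRSS4, a membrane serine protease, rose by 1.86 (adjusted p 0.00172). Its mean level over the 24 arrays was 3.79, near the lowest value kept (3.2), and whether it passed the filter through treated arrays alone was not looked at. The call of TMPRSS4 is therefore a description only, also within the 3 counted higher. SCNN1A, the alpha subunit of the epithelial sodium channel that such proteases cleave, rose by 0.73 (adjusted p 0.00104), and ST14, the matriptase that SPINT1 inhibits, by 0.26 (adjusted p 0.0208). MET, the receptor of hepatocyte growth factor, fell by 0.59 (adjusted p 0.00508). PRSS8 (prostasin) differed by 0.10 at 48 h (adjusted p 0.435).
Of 5 genes listed as neutrophil serine proteases and their relatives, 4 have a probe set of their own and 0 passed the filter on low values. Not all 5 are known targets of SLPI, elafin or SERPINB1. Their levels are not given beside those of the inhibitors.
Of 5 tested genes of squamous differentiation, 2 were called higher at 48 h, SPRR1B by 1.82 (adjusted p 0.000491) and SPRR1A by 1.28 (adjusted p 0.0141), which encode proteins of the cornified envelope. TGM1, the transglutaminase that links such proteins, fell by 1.06 (adjusted p 0.00826).

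For the 4 called genes, the genes whose values were most alike over the 24 arrays are given as a description, since the arrays share treatments, times and the axis of variation. CST6 was closest to UCA1 (Pearson r = 0.946), a long noncoding RNA, and CRABP2 (0.943), a retinoic acid binding protein. SLPI was closest to MELTF (0.937) and TM7SF2 (0.935), an enzyme of cholesterol synthesis. SERPINB1 was closest to EFL1 (0.968) and RASSF5 (0.967).
RASSF5 shared the course of SERPINB1 by its log2 differences of 3.91, 0.82 and 1.20 at 6, 24 and 48 h. SERPINB13 was closest to DUSP6 (0.959), a phosphatase that acts on ERK kinases, and PDGFC (0.937), a growth factor. DUSP6 had log2 differences of -1.34, -0.67 and -0.37.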

How the data were processed

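RNA of 24 RWPE1 cultures was hybridised to Affymetrix U133 Plus 2.0 arrays. The authors background-corrected, quantile-normalized and summarised the probe sets with gcRMA over all arrays, and the deposited values are log2 intensities without their present-call filter. The gcRMA version is not given in the sources used here.

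Here 62 control probe sets were left out, and as many of the remaining probe sets as the study tested were kept, ranked by the value that 3 of 4 arrays of at least 1 group reached (lowest kept 3.2 on the log2 scale), since the study's present calls were not used. Treated and vehicle arrays of each time (8) were compared with limma 3.58.1 (lmFit, eBayes) in R 4.3.3, and effects between times and vehicle times in a fit of 6 group means (24 arrays). P-values were adjusted by Benjamini-Hochberg over all tested probe sets, with a threshold of 0.05. Of all 54613 probe sets 41091 carry 1 symbol, 1801 several and 11721 none in the platform annotation, and those with several symbols were not used to name a gene. Intervals are from limma. Arrays have no read depth, and their number limits the precision.

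The genes, the lists and the tests were chosen with earlier results of these data known. Named are the 10 genes with all their probe sets, in each list and at each time the called genes (at most 3 in each direction), some uncalled relatives and targets that were chosen after their values were seen, and for each called gene the 2 genes with the highest correlation over the 24 arrays, with CYP24A1 and cell type markers as checks. Alternatives were 1 fit of all arrays, SAM (re-implemented, all relabellings of 4 against 4), no filter, a stricter filter (15000 probe sets), a second quantile normalization, centring on medians, 32 added to every linear value, eBayes with a trend and robust fitting, a block for the replicate number, averaging the probe sets of a gene, and each array left out in turn. Leaving out all 4 arrays that stood apart was added after the data were seen. The tests were tried on simulated arrays with independent noise for each probe set. The real arrays share an axis of variation, so that trial cannot show how the tests behave here and is no support for a call. Motifs were searched with Python 3.11.15, and the VDR binding data of the study were not analysed here.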

Additional observations from a re-analysis of the deposited data

Results flagged for a closer look

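In vehicle at 24 h, 1 array lay far from the other 3 for CSTA, PI3 and SPINT1. The gap to the nearest array made up 0.841 of the group's range for CSTA (lowest array), 0.938 for PI3 (highest) and 0.858 for SPINT1 (highest), and in each case the array was replicate 1, which also stood apart on the axis of variation (-0.36). In all, 60 groups were examined and 3 passed the limit, and chance passes about 1 in 20.

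The effect of 1,25(OH)2D differed between times for 2 genes. Taken as the later effect minus the earlier one, the difference between 24 and 6 h was 1.00 for SLPI and -1.92 for SERPINB1, and between 48 and 6 h it was -1.62 for SERPINB1, each tested as an interaction in limma.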

How the results depend on the processing

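The calls at 6 h (3 genes) and 48 h (4) stayed within 1.5 times under all alternatives. At 24 h the 3 calls became 0 with no filter, 0 with the replicate block, 1 with median centring and 5 without the 4 arrays that stood apart, and ranged from 0 to 3 with 1 array left out. Of the 2 differences of effects between 24 and 6 h, 1 was left with no filter and 1 to 2 with 1 array left out. The 1 difference between 48 and 6 h became 2 with median centring, 2 with the mean of probe sets and 2 without the arrays that stood apart. With the mean of probe sets CST6 is averaged with 231248_at, which passed the filter only through the treated arrays of 6 h. That count is therefore a description only. The 2 vehicle changes from 6 to 24 h became 4 with the stricter filter, 4 with a second quantile normalization, 4 without the arrays that stood apart and 2 to 4 with 1 array left out. From 24 to 48 h, 0 became 1 without the arrays that stood apart. The causes were not tested. SERPINB13 lost its call at 6 h with no filter and with the offset of 32, and at 48 h in 1 fit of all 24 arrays, and SERPINB1 lost its call at 24 h also with the trend option and with the mean of probe sets. At 24 h the replicate block ended the calls of CST6, SLPI and SERPINB1. Same-numbered arrays deviated together in 3 of 4 pairs at 6 h (r 0.589 to 0.756, against -0.366 for replicate 2) and in 1 of 4 at 24 h (0.352, the others -0.889 to -0.167), and r was -0.118 to -0.0087 at 48 h. Since not every pair was above 0.1, the block pairs arrays by number alone. Median centring moved the median of all probe sets at 24 h from 0.0161 to 0.182.

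Of 1880 log2 differences recomputed, 43 changed sign, none of them of a called result. With the mean of probe sets, the difference between 24 and 6 h was -1.34 for CST6 and 0.23 for SPINT1, that between 48 and 6 h was -1.6 for CST6, and the treatment difference was -0.00 for PI3 and -0.08 for SPINT1 at 6 h and 0.15 for SPINT1 at 24 h. The CST6 values of that setting include 231248_at, which passed the filter only through the treated arrays of 6 h, and are a description only. With median centring SPINT1 was at -0.00 at 6 h, 0.15 at 24 h and 0.16 for 24 against 6 h, and CSTA was at 0.04 for 24 against 6 h. Without the arrays that stood apart CSTB was at 0.04 at 6 h, SPINT1 at 0.03 at 24 h and -0.01 for 48 against 6 h, and CST6 at -0.01 for 48 against 6 h.

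With 1 array left out, the treatment difference ranged from -0.10 to 0.04 for CSTB at 6 h, -0.05 to 0.08 for SPINT1 at 6 h, -0.06 to 0.05 for SPINT1 at 24 h and -0.04 to 0.25 for SERPINB5 at 24 h. The difference between 24 and 6 h ranged from -0.14 to 0.43 for CST6, -0.26 to 0.01 for CSTA and -0.10 to 0.04 for SPINT1, and that between 48 and 6 h from -0.01 to 0.47 for CST6 and -0.03 to 0.10 for SPINT1. In vehicle, 24 minus 6 h ranged from -0.16 to 0.02 for CSTA and -0.03 to 0.07 for SPINT2, and 48 minus 24 h from -0.02 to 0.10 for SLPI.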
